A study of Homo sapiens with 6 samples.

Results

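The 48 genes described here make the proteins that copy DNA in S phase, and the regulators that let a cell enter S phase. They were chosen by name from the 58735 genes of the deposited count table, as the G1/S cyclins and E2F factors (4 genes), the origin licensing genes (5), the MCM2-7 helicase (6), the genes of helicase activation (6), the sliding clamp and its loader (6), the polymerases and primase (8), single-strand binding and flap ligation (5), nucleotide supply (4) and chromatin duplication (4). All 48 genes were found in the table and all 48 passed the filter on low counts, with 88 to 4866 counts per gene and library. LoVo is an established human colorectal cancer cell line. The cells received either a negative control siRNA (labelled si-nc, here si-NC) or an siRNA against the splicing factor SRSF11 (si-SRSF11), both with the transfection reagent jetPRIME, and 3 libraries of polyadenylated RNA were sequenced per condition. The methods list several SRSF11 siRNAs and do not say which one was used for sequencing, and they give neither the time between transfection and harvest nor a cell cycle profile of these cells. The study calls its RNA samples independent and speaks of pairs of control and knockdown samples, but does not say what a pair shares or whether the samples came from separate cultures, so the p-values below measure the spread between these samples, which may be technical. The count totals ranged from 14369525 to 16685719 per library, and the 48 genes held 0.264%, 0.258% and 0.263% of the si-NC totals and 0.283%, 0.285% and 0.288% of the si-SRSF11 totals (replicates 1, 2 and 3 in that order). SRSF11 itself fell to 57.2% of its si-NC level, with a log2 fold change of -0.81 (its standard error, SE below, was 0.054). Levels are given as CPM, each count divided by its library total after scaling by TMM factors. Of 12 epithelial marker genes, 11 had at least 10 counts in every library, and their summed level was 6185 to 6571 CPM in si-NC and 6211 to 6658 in si-SRSF11. Among 8 fibroblast markers, DCN and LUM were at 0 and the sum was 19.8 to 23.6 in si-NC and 24.9 to 29.03 in si-SRSF11. Among the 7 leukocyte markers reported, PTPRC, CD3D and MS4A1 were at 0, 1 gene (CD14) had at least 10 counts in every library, and the sum was 2.83 to 3.21 in si-NC and 3.75 to 4.17 in si-SRSF11. The 4 endothelial markers, with KDR at 0, added up to 1.48 to 2.57 and 0.797 to 2.05. The fibroblast and leukocyte sums were higher in each si-SRSF11 library than in each si-NC library, and their part in the results was not tested.

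A replication origin is licensed in G1, when the origin recognition complex, CDC6 and CDT1 load the ring of MCM2 to MCM7 onto DNA, and geminin blocks CDT1 afterwards so that an origin is used once per cycle. In S phase, CDC45 and the GINS complex join the ring and turn it into the active helicase, DNA polymerase alpha and primase lay down primers, the RFC complex loads the PCNA clamp, and polymerases epsilon and delta extend the strands. Cyclin E and the E2F factors drive the G1/S transition, and many genes of licensing and of the fork are known E2F targets whose mRNA rises around the start of S phase.

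Expression of the 48 genes was compared between si-SRSF11 and si-NC to see how far the genes of DNA replication moved when SRSF11 was depleted. The 6 subunits of the MCM2-7 helicase rose together by about the same proportion, GINS2 and UHRF1 rose by a similar amount, and the other 40 genes had log2 fold changes between -0.20 and 0.31. In all, 15 of the 48 genes rose and 3 fell at an adjusted p under 0.05 (edgeR's quasi-likelihood test with Benjamini-Hochberg adjustment over 15801 tested genes), and 30 did not pass. That is 31.2% of the 48 genes higher and 6.25% lower, beside 13.2% higher and 11.4% lower among all tested genes (24.6% in either direction). The median log2 fold change of the 48 genes was 0.09, with a range of -0.20 to 0.51, beside a median of 0.0015 over all tested genes. In 23 of the 48 genes the levels of the 3 si-SRSF11 libraries did not overlap those of the 3 si-NC libraries, 19 of them higher and 4 lower, beside 20% and 18.9% of all tested genes (38.8% in either direction). With scaling by library size alone, 11 genes rose and 3 fell, beside 1585 of all tested genes higher and 2289 lower. Each of the 3 lower genes passed in 8 to 11 of 13 alternative fits, but none of them passed without si-NC replicate 1 or without si-SRSF11 replicate 2, where 2 and 4 lower genes had an unadjusted p under 0.05. In bulk RNA, fewer cells in a phase of the cycle and less RNA per cell cannot be told apart.

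**Figure D1:**
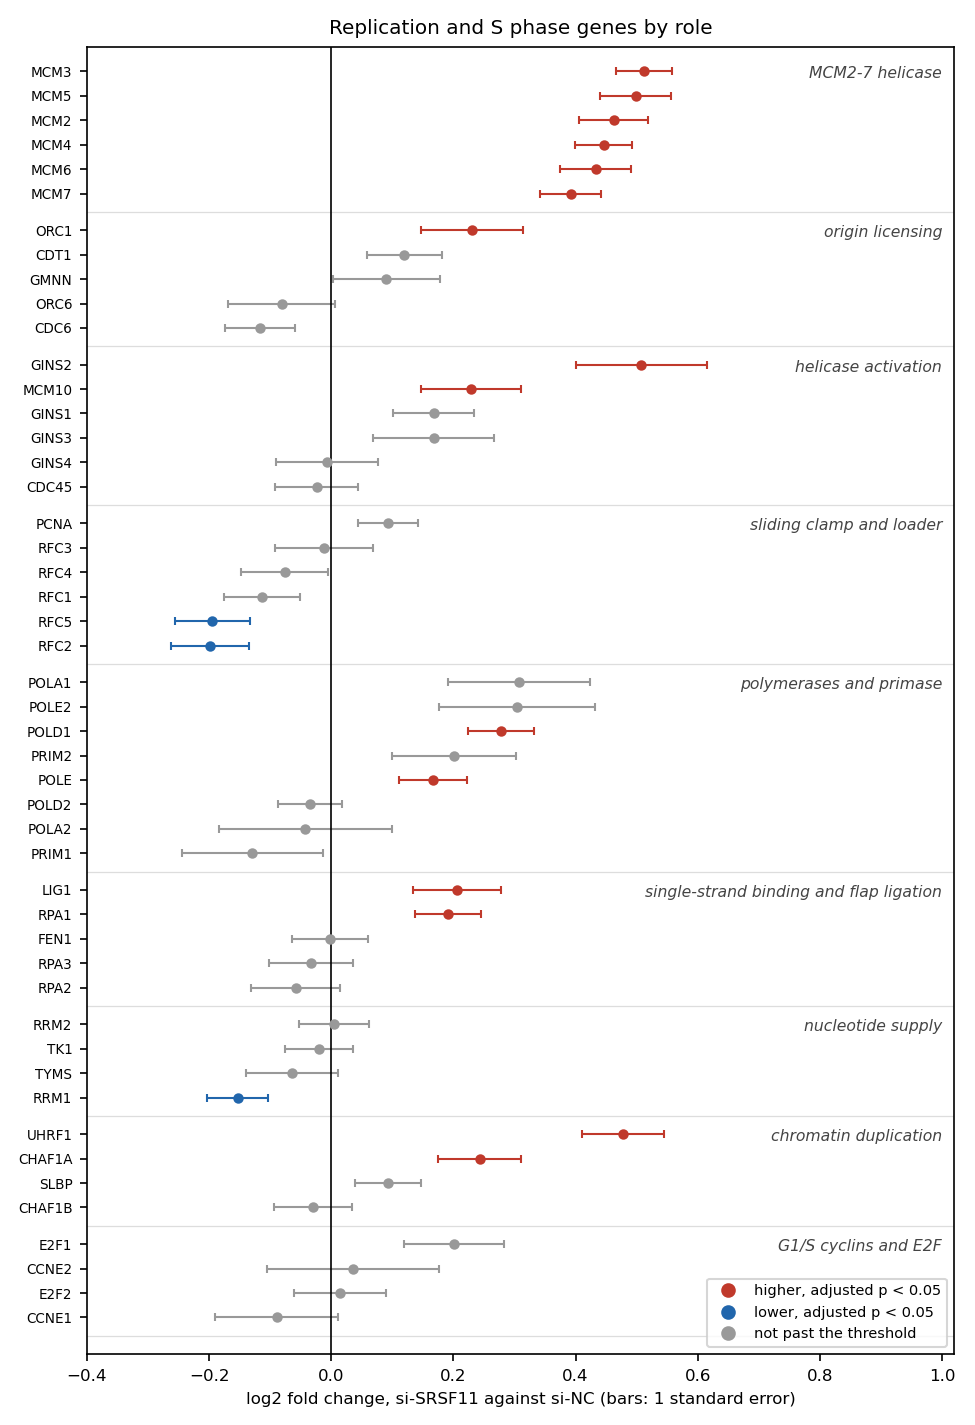
Log2 fold change of each of the 48 genes in si-SRSF11 against si-NC (x axis), grouped by role; points are edgeR estimates from 3 libraries per condition, bars are 1 standard error, and colours mark genes that rose (15), fell (3) or did not pass (30) at an adjusted p under 0.05. The MCM2-7 genes form a block between 0.39 and 0.51, while the clamp and loader genes lie between -0.20 and 0.09.

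The MCM2-7 genes encode the 6 related ATPases that form the ring around DNA and unwind it at the fork. All 6 rose in si-SRSF11, with 0 lower. CPM values are given below for replicates 1, 2 and 3 in that order. MCM3 (ENSG00000112118, chromosome 6, 52264009 to 52284881, minus strand) stood at 112, 111 and 109 CPM in si-NC and at 160, 156 and 158 CPM in si-SRSF11. Every si-SRSF11 library lay above every si-NC library, and the gap between the groups was many times the spread within either one. The log2 fold change was 0.51 (SE 0.046, adjusted p = 4.4e-08). MCM5 (ENSG00000100297, chromosome 22, 35400063 to 35425430, plus strand) stood at 44.0, 44.5 and 43.9 CPM in si-NC and at 63.4, 60.3 and 63.3 CPM in si-SRSF11, a log2 fold change of 0.50 (SE 0.058, adjusted p = 1.4e-06). MCM2 (ENSG00000073111, chromosome 3, 127598223 to 127622436, plus strand) stood at 56.7, 51.3 and 54.4 CPM in si-NC and at 73.9, 75.0 and 74.7 CPM in si-SRSF11, a log2 fold change of 0.46 (SE 0.056, adjusted p = 2.8e-06). In both genes the groups were apart, and MCM2 varied more among the si-NC libraries than among the si-SRSF11 libraries. MCM4 (ENSG00000104738, chromosome 8, 47960185 to 47978160, plus strand) had the most reads of the 6, with 212, 211 and 223 CPM in si-NC and 295, 287 and 298 CPM in si-SRSF11, a log2 fold change of 0.45 (SE 0.047, adjusted p = 3.7e-07). MCM6 (ENSG00000076003, chromosome 2, 135839626 to 135876426, minus strand) stood at 45.2, 46.7 and 48.3 CPM in si-NC and at 61.8, 63.6 and 64.0 CPM in si-SRSF11, a log2 fold change of 0.43 (SE 0.058, adjusted p = 9.2e-06). MCM7 (ENSG00000166508, chromosome 7, 100092728 to 100101940, minus strand) stood at 160, 159 and 162 CPM in si-NC and at 199, 222 and 209 CPM in si-SRSF11, a log2 fold change of 0.39 (SE 0.050, adjusted p = 4.6e-06). These 3 genes did not overlap between the groups either, and MCM7 had the widest spread among the si-SRSF11 libraries. The 6 genes kept an adjusted p under 0.05 in each of the 13 alternative fits, with log2 fold changes between 0.35 and 0.52. MCM2 shares 23.6% of its exon bases with other annotated genes, mainly an antisense gene with 0 to 3 counts per library, and MCM7 shares 8.94% with AP4M1 on the opposite strand, which had 285 to 300 counts.

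**Figure D2:**
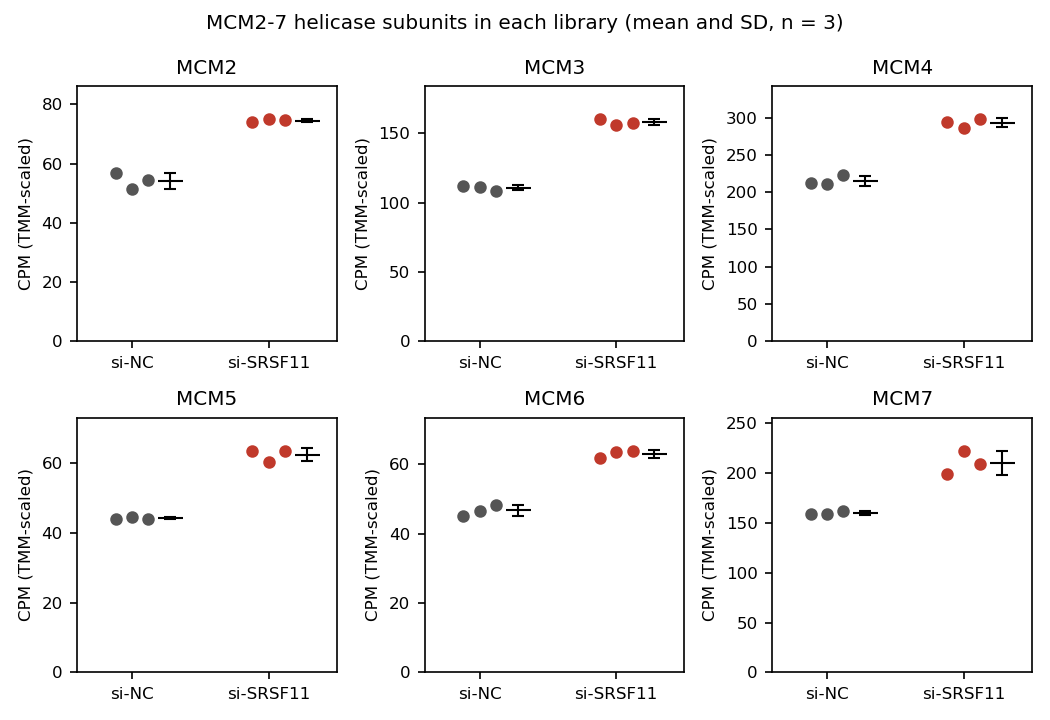
Level of each MCM2-7 gene in each library (y axis, TMM-scaled CPM from 0); points are single libraries, and the bar beside each group is the mean and SD (n = 3). In each of the 6 genes the si-SRSF11 points lie above the si-NC points.

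Added up, the MCM2-7 genes went from 631 ± 8.89 to 862 ± 7.13 CPM (SD, n = 3 libraries each), a ratio of 1.36. The sums were 630, 624 and 641 CPM in si-NC and 854, 864 and 867 CPM in si-SRSF11. The other 42 genes together went from 1959 ± 36.9 to 2031 ± 46.1 CPM (SD, n = 3 libraries each), a ratio of 1.04. The larger part of the gain of all 48 genes, from 2590 to 2893 CPM, was thus counted on the 6 helicase genes. The make-up of the helicase mRNA was compared per length, as each gene's share of the summed CPM per kilobase of annotated exons. The length counts all annotated exons of a gene (7338 bases for MCM5, 3650 for MCM3), not those of the transcripts expressed. A share thus depends on the annotation and does not give the true proportions of the subunits. The share of MCM7 went from 28.95% ± 0.0928 to 27.8% ± 1.32 (SD, n = 3 libraries each), and that of MCM3 from 24.1% ± 0.628 to 25.1% ± 0.592. MCM4 was at 24.5% and 24.4%, MCM6 at 9.0% and 8.9%, MCM2 at 8.75% and 8.82%, and MCM5 at 4.77% and 4.93%. The shift of MCM7 was smaller than the SD of its share among the si-SRSF11 libraries, and none of the shares was tested.

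The promoters of 4 helicase genes are shown, those in the RefSeq promoter table used here, and each holds the letters of an E2F site. Each sequence runs 5′ to 3′ on the gene's own strand of GRCh38.p14, from 250 bases before the RefSeq start to 50 after it, and capitals mark a match, on either strand, to TTTCCCGC, TTTGGCGC, TTTCGCGC or TTTGCCGC, the 4 sets of letters searched, with overlapping matches joined. They lie at chr3:127598161-127598460 on the plus strand (MCM2), chr6:52284693-52284992 on the minus strand (MCM3), chr2:135876394-135876693 on the minus strand (MCM6) and chr7:100101348-100101647 on the minus strand (MCM7, 1 of 3 RefSeq entries, shown for its matches).
MCM2: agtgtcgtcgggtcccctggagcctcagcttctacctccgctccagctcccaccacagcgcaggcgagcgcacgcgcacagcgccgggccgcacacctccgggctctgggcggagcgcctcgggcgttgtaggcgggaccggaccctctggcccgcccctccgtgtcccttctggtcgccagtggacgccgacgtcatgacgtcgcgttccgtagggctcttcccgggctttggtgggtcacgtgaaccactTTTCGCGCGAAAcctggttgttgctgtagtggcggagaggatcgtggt
MCM3: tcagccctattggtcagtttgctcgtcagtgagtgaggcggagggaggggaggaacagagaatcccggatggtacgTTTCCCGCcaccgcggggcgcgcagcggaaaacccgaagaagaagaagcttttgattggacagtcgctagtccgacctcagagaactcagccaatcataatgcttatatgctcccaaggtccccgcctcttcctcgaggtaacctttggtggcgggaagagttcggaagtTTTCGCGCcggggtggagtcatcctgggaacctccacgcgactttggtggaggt
MCM6: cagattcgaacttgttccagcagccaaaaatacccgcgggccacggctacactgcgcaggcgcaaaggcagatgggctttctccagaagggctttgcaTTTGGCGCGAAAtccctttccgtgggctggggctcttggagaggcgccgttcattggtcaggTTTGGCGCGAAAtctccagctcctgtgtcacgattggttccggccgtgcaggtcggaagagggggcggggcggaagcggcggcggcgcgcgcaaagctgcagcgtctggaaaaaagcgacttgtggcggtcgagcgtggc
MCM7: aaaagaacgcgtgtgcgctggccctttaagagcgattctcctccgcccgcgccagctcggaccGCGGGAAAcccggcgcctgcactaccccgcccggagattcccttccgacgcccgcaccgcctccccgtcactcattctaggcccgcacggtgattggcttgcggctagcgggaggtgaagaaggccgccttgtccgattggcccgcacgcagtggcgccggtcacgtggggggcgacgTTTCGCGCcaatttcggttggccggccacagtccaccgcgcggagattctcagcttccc
With the start counted as 0, the match of MCM2 begins at position 2 and is the joined stretch TTTCGCGCGAAA. MCM6 has 2 copies of the stretch TTTGGCGCGAAA, at positions -152 and -90, MCM3 has matches at -174 and -4, and MCM7 at -187 and -9.

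Of the origin licensing genes, which load the helicase, 1 of 5 rose and 0 fell (1 had an unadjusted p under 0.05, and DESeq2 called 0). The counts of this and every other role stand beside 13.2% higher and 11.4% lower among all tested genes. ORC1, the ATPase subunit of the origin recognition complex that appears in G1, stood at 20.4, 20.7 and 21.4 CPM in si-NC and at 23.2, 25.0 and 25.1 CPM in si-SRSF11. The groups did not overlap, and the log2 fold change was 0.23 (SE 0.083, adjusted p = 0.046). The call passed in 3 of 13 alternatives only and was lost without any single library other than si-SRSF11 replicate 1 (adjusted p = 0.080 to 0.13), and with DESeq2 (adjusted p = 0.10). CDC6, the loader that joins ORC, went the other way without passing, with 69.4, 66.8 and 72.3 CPM in si-NC and 66.2, 65.0 and 61.1 CPM in si-SRSF11 (log2 fold change -0.12, SE 0.057, adjusted p = 0.14). Its groups did not overlap, but the lowest si-NC and the highest si-SRSF11 library lay less than 1 CPM apart. The licensing factor CDT1 (log2 fold change 0.12, adjusted p = 0.17), its inhibitor geminin (GMNN, 0.09, adjusted p = 0.49) and ORC6 (-0.08, adjusted p = 0.55) did not pass. The log2 ratio of CDT1 to GMNN counts within a library was 2.04, 2.06 and 2.16 in si-NC and 2.19, 1.99 and 2.17 in si-SRSF11, with overlapping groups and a difference of 0.03 (higher in si-SRSF11 on average, exact two-sided permutation test, p = 0.8, adjusted p = 0.8 over 3 such ratios). The smallest p that 3 samples against 3 allow is 0.1.

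Helicase activation is the step at which GINS, CDC45 and MCM10 turn the loaded ring into a moving fork, and 2 of these 6 genes rose and 0 fell (3 had an unadjusted p under 0.05, and DESeq2 called 1). GINS2 (ENSG00000131153, chromosome 16, 85676198 to 85690073, minus strand), a subunit of the GINS tetramer, stood at 12.9, 16.3 and 13.1 CPM in si-NC and at 20.3, 18.3 and 21.6 CPM in si-SRSF11. The lowest si-SRSF11 library was above the highest si-NC library, though si-NC replicate 2 stood apart from the other si-NC libraries. The log2 fold change was 0.51 (SE 0.11, adjusted p = 0.0012), and it ranged from 0.45 to 0.63 with 1 library left out. The other 3 subunits of the tetramer did not pass. GINS1 had 47.99, 44.9 and 41.1 CPM in si-NC and 48.02, 51.3 and 51.0 CPM in si-SRSF11 (log2 fold change 0.17, SE 0.066, adjusted p = 0.068), where the groups nearly met, and it passed without si-NC replicate 1 (0.22, adjusted p = 0.045). GINS3 (0.17, adjusted p = 0.23) and GINS4 (-0.01, adjusted p = 0.96) gave log2 fold changes with 95% intervals of -0.03 to 0.36 and -0.17 to 0.16. The 4 genes of 1 tetramer thus had estimates from -0.01 to 0.51, and differences between them were not tested. MCM10, which binds the helicase at firing, stood at 21.8, 23.6 and 23.5 CPM in si-NC and at 28.5, 25.3 and 26.9 CPM in si-SRSF11, with no overlap and a log2 fold change of 0.23 (SE 0.082, adjusted p = 0.044). This call passed in 3 of 13 alternatives and was lost without any single library other than si-SRSF11 replicate 2 (adjusted p = 0.075 to 0.17), with DESeq2 (adjusted p = 0.097), and with the replicate number as a block (adjusted p = 0.0504). CDC45, the helicase partner of GINS, lay at 39.8 CPM in si-NC and 39.1 CPM in si-SRSF11, with a 95% interval of -0.16 to 0.11 around its log2 fold change of -0.02.

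Of the sliding clamp and its loader, 0 of 6 genes rose and 2 fell (2 with an unadjusted p under 0.05, and 2 called by DESeq2). PCNA, the ring that holds polymerases on DNA, had 124, 118 and 127 CPM in si-NC and 126, 134 and 133 CPM in si-SRSF11, with overlapping groups (log2 fold change 0.09, 95% interval -0.0023 to 0.19, adjusted p = 0.17). RFC1 is the large subunit of the clamp loader and RFC2 to RFC5 are the small ones, and all 5 had estimates below 0, from -0.20 to -0.01. RFC2 stood at 44.8, 44.9 and 46.5 CPM in si-NC and at 38.1, 38.9 and 41.6 CPM in si-SRSF11, without overlap, and fell by 0.20 on the log2 scale (SE 0.064, adjusted p = 0.025). RFC5 stood at 50.5, 46.9 and 47.2 CPM in si-NC and at 41.8, 41.9 and 42.6 CPM in si-SRSF11, without overlap, and fell by 0.19 on the log2 scale (SE 0.061, adjusted p = 0.024). Both changes are small beside those of the helicase. RFC2 lost its call without any single library other than si-SRSF11 replicate 3 (adjusted p = 0.056 to 0.098), and RFC5 lost it without si-NC replicate 1 (adjusted p = 0.13) or si-SRSF11 replicate 2 (adjusted p = 0.065). Other genes overlap 10.6% of the exon bases of RFC5, mainly WSB2 on the opposite strand with 2239 to 2798 counts per library, and nothing states that reads were counted by strand.

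Of the genes of polymerases and primase, 2 of 8 rose and 0 fell (4 had an unadjusted p under 0.05, and DESeq2 called 1). POLD1 (ENSG00000062822, chromosome 19, 50384204 to 50418016, plus strand), the catalytic subunit of polymerase delta, stood at 76.4, 69.5 and 74.1 CPM in si-NC and at 92.1, 86.7 and 87.9 CPM in si-SRSF11. The groups were well apart, with a log2 fold change of 0.28 (SE 0.054, adjusted p = 0.00063). POLD2, an accessory subunit of the same enzyme, had 143, 133 and 137 CPM in si-NC and 126, 135 and 142 CPM in si-SRSF11, with overlapping groups and a log2 fold change of -0.04 (95% interval -0.14 to 0.07). POLE, the catalytic subunit of polymerase epsilon, stood at 61.6, 59.9 and 59.2 CPM in si-NC and at 69.0, 68.9 and 64.9 CPM in si-SRSF11, without overlap (log2 fold change 0.17, SE 0.055, adjusted p = 0.031). Its call was lost without any single library other than si-SRSF11 replicate 3 (adjusted p = 0.064 to 0.11), and with DESeq2 (adjusted p = 0.076). POLE2, its accessory subunit, had 8.76, 7.76 and 7.70 CPM in si-NC and 10.4, 10.7 and 8.83 CPM in si-SRSF11 (log2 fold change 0.30, SE 0.13, adjusted p = 0.087), and passed without si-SRSF11 replicate 3 (0.38, adjusted p = 0.045). The groups of POLE2 did not overlap, with less than 1 CPM between the nearest libraries.

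Polymerase alpha and primase, which make the primers, showed unequal estimates among their subunits. The catalytic subunit POLA1 had 13.9, 10.2 and 11.2 CPM in si-NC and 14.1, 14.6 and 15.0 CPM in si-SRSF11 (log2 fold change 0.31, SE 0.12, adjusted p = 0.056). The si-NC and si-SRSF11 libraries nearly met at replicate 1 of each, and without si-NC replicate 1 the gene passed (0.44, adjusted p = 0.015). PRIM2, the large primase subunit, had 16.5, 14.9 and 14.4 CPM in si-NC and 19.2, 15.8 and 17.7 CPM in si-SRSF11, with overlapping groups (0.20, SE 0.10, adjusted p = 0.16). PRIM1, the small primase subunit, had a log2 fold change of -0.13 (95% interval -0.35 to 0.10), and POLA2 one of -0.04 (95% interval -0.32 to 0.24). POLA2 shares 35.1% of its exon bases with an overlapping annotated gene and PRIM1 shares 21.6%, and 13.4% of the 100-nt windows of PRIM2 occur elsewhere, so these 3 counts are uncertain.

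In single-strand binding and flap ligation, 2 of 5 genes rose and 0 fell (2 had an unadjusted p under 0.05, and DESeq2 called 1). RPA1, the large subunit of the single-strand binding trimer, stood at 62.6, 60.6 and 63.3 CPM in si-NC and at 70.3, 70.5 and 72.2 CPM in si-SRSF11, with a clear gap between the groups (log2 fold change 0.19, SE 0.054, adjusted p = 0.012; adjusted p = 0.058 without si-NC replicate 2). The smaller subunits RPA2 and RPA3 had log2 fold changes of -0.06 (95% interval -0.20 to 0.09) and -0.03 (95% interval -0.17 to 0.10). LIG1, the ligase that seals Okazaki fragments, stood at 29.8, 29.9 and 33.7 CPM in si-NC and at 35.6, 35.9 and 36.2 CPM in si-SRSF11, where si-NC replicate 3 came close to the si-SRSF11 libraries (log2 fold change 0.21, SE 0.072, adjusted p = 0.039). The LIG1 call was lost without any single library other than si-NC replicate 3 (adjusted p = 0.067 to 0.16), and with DESeq2 (adjusted p = 0.093). FEN1, the nuclease that trims the flaps, had 54.1 to 54.6 CPM in si-NC and 51.2 to 58.9 CPM in si-SRSF11 (log2 fold change -0.0024, 95% interval -0.12 to 0.12).

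Nucleotide supply had 1 of 4 genes lower and 0 higher (1 with an unadjusted p under 0.05, and 1 called by DESeq2). RRM1, the large subunit of ribonucleotide reductase, stood at 113, 105 and 105 CPM in si-NC and at 98.9, 94.1 and 97.1 CPM in si-SRSF11, without overlap. It fell by 0.15 on the log2 scale (SE 0.050, adjusted p = 0.029), and lost the call without si-NC replicate 1 (adjusted p = 0.18) or si-SRSF11 replicate 2 (adjusted p = 0.11). RRM2, the small subunit whose level follows S phase, had 75.5, 67.7 and 76.5 CPM in si-NC and 72.4, 71.7 and 76.2 CPM in si-SRSF11, with overlapping groups and a log2 fold change of 0.0042 (95% interval -0.11 to 0.12). The log2 ratio of RRM2 to RRM1 counts was -0.58, -0.63 and -0.46 in si-NC and -0.45, -0.39 and -0.35 in si-SRSF11. It was higher in 3 of 3 si-SRSF11 libraries than in any si-NC library, by 0.16 on average, although si-NC replicate 3 and si-SRSF11 replicate 1 nearly coincided (p = 0.1 in the exact permutation test, two-sided, which is the floor of this design, adjusted p = 0.3). Thymidylate synthase (TYMS) and thymidine kinase (TK1) had log2 fold changes of -0.06 (95% interval -0.21 to 0.08) and -0.02 (95% interval -0.13 to 0.09). Other genes, mainly ENOSF1 on the opposite strand, overlap 46.6% of the exon bases of TYMS, and another annotated gene overlaps 20.2% of those of RRM2.

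Of the genes of chromatin duplication, 2 of 4 rose and 0 fell (2 had an unadjusted p under 0.05, and DESeq2 called 2). UHRF1 (ENSG00000276043, chromosome 19, 4903080 to 4962154, plus strand), which reads hemimethylated DNA behind the fork and brings in the maintenance methyltransferase DNMT1, stood at 59.2, 51.8 and 50.5 CPM in si-NC and at 69.3, 80.2 and 75.2 CPM in si-SRSF11. The groups were apart by more than the spread within si-NC but by slightly less than the spread within si-SRSF11. The log2 fold change was 0.48 (SE 0.067, adjusted p = 1.6e-05). Of the 100-nt windows of UHRF1, 20.7% also occur in a processed pseudogene with 53 to 81 counts per library, so its count could be split. CHAF1A, the large subunit of the histone chaperone CAF-1, stood at 41.3, 41.3 and 41.0 CPM in si-NC and at 46.9, 53.8 and 45.6 CPM in si-SRSF11. It did not overlap between groups (log2 fold change 0.24, SE 0.068, adjusted p = 0.011), si-SRSF11 replicate 2 was its highest library, and without that library the estimate was 0.17 (adjusted p = 0.099). CHAF1B, another CAF-1 subunit, had a log2 fold change of -0.03 (95% interval -0.16 to 0.10), and SLBP, which binds the stem-loop of histone mRNA, one of 0.09 (95% interval -0.01 to 0.20).

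Of the G1/S cyclins and E2F factors, 0 of 4 genes passed in edgeR (1 had an unadjusted p under 0.05, and DESeq2 called 0). E2F1, an activating E2F factor, had 39.9, 40.9 and 44.2 CPM in si-NC and 40.3, 49.6 and 53.7 CPM in si-SRSF11, where si-SRSF11 replicate 1 lay within the si-NC libraries (log2 fold change 0.20, SE 0.082, adjusted p = 0.079). The gene passed in 3 of 13 alternatives: without si-SRSF11 replicate 1, at 0.30 (adjusted p = 0.0026), with no filter on low counts, at 0.19 (adjusted p = 0.046), and with the replicate number as a block, at 0.20 (adjusted p = 0.034). The paralogue E2F2 had 27.2 to 30.3 CPM in si-NC and 27.9 to 29.7 CPM in si-SRSF11 (log2 fold change 0.01, 95% interval -0.13 to 0.16). Cyclin E1 (CCNE1) had a log2 fold change of -0.09 (95% interval -0.29 to 0.11) and cyclin E2 (CCNE2) one of 0.04 (95% interval -0.24 to 0.31). The log2 ratio of CCNE1 to CCNE2 counts was 1.62, 1.30 and 1.39 in si-NC and 1.20, 1.28 and 1.41 in si-SRSF11, with overlapping groups and a mean difference of -0.14 (exact two-sided permutation test, p = 0.3, adjusted p = 0.45). Other genes, mainly INTS8 on the opposite strand, overlap 37.1% of the exon bases of CCNE2.

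The intervals of the 30 genes that did not pass give only an approximate bound, since they are narrower than the test implies. That of CDC6, for example, ran from -0.23 to -0.0058, although its unadjusted p in edgeR's test was 0.051. In 22 of the 30, the 95% interval of the log2 fold change lay within -0.3 to 0.3, and their standard errors ran from 0.049 to 0.14. Per kilobase of annotated exons, the levels spanned from 1.41 CPM per kilobase (POLA2) to 83.6 CPM per kilobase (PCNA) in si-NC. After PCNA came TK1 at 69.3, SLBP at 47.2, POLD2 at 37.3 and MCM7 at 36.5 CPM per kilobase, and the lowest after POLA2 were CCNE2 at 1.61 and POLA1 at 1.86. In si-SRSF11, MCM7 stood at 47.9 CPM per kilobase, above POLD2 at 36.4. The order of the genes depends on the annotated length, which need not be that of the expressed transcripts. Levels and changes were only weakly related over the 48 genes, which share the same libraries (Spearman's rho -0.16 between the si-NC level per kilobase and the log2 fold change, as a description).

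**Figure D3:**
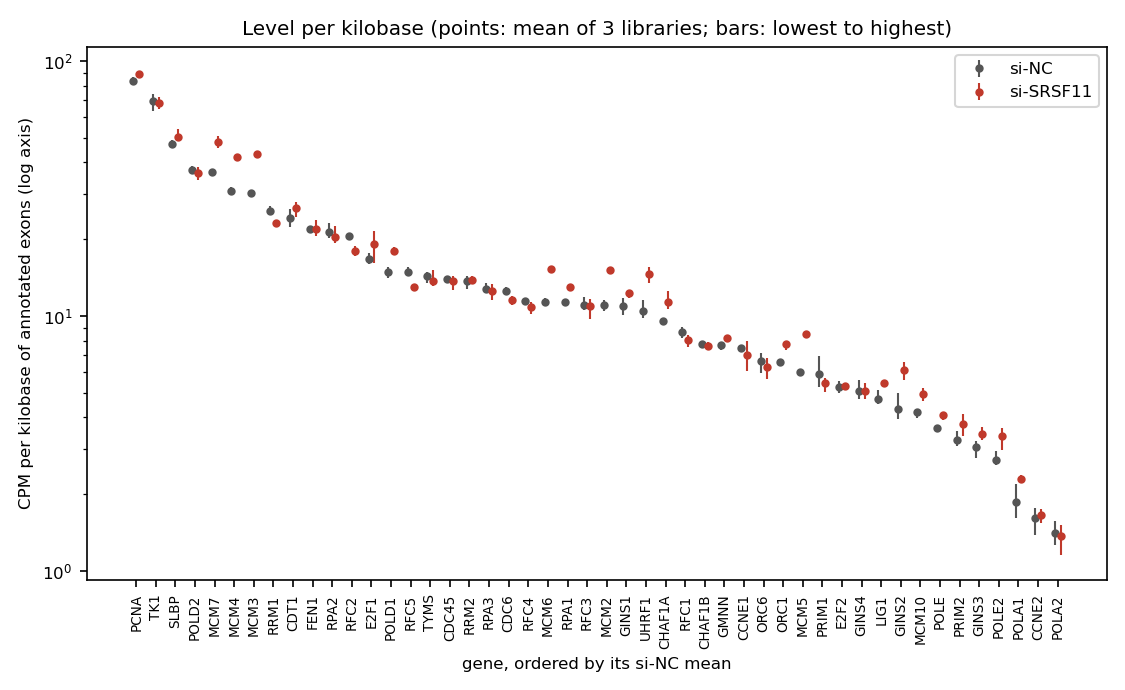
Level of each gene as TMM-scaled CPM per kilobase of annotated exons (y axis, logarithmic), ordered by the si-NC mean; points are means of 3 libraries and bars run from the lowest to the highest library. PCNA, at 83.6 in si-NC, and POLA2, at 1.41, mark the ends, and the helicase genes stand above their si-NC points without overlap.

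The letters of an E2F site were looked up in all promoters of the RefSeq promoter table used here. It holds 42 of the 48 genes (all but RPA2, RPA3, MCM4, MCM5, GINS4 and CCNE2), and the other promoters were not searched. A gene with several promoter entries was counted by the entry with the most matches, so its other entries may have none. On this count, 21 of 42 genes (50%) had at least 1 match, beside 6.56% of 10601 tested genes and 3.99% of all 27305 genes in the promoter table. In 4 of 42 (9.52%, MCM3, MCM6, MCM7 and E2F1) there were 2 or more separate matches, beside 0.283% of tested genes. The 21 genes with a match included 8 that rose (MCM2, MCM3, MCM6, MCM7, GINS2, POLE, LIG1 and UHRF1), 0 that fell and 13 that did not pass. The 21 without one included 5 that rose (ORC1, MCM10, POLD1, RPA1 and CHAF1A), 3 that fell (RFC2, RFC5 and RRM1) and 13 that did not pass. The letters of a CCAAT box (CCAAT on either strand), counted in the same way, stood in 59.5% of the 42 genes, beside 42.5% of tested genes. These letters were chosen after the expression values were seen, and the split was not tested. A match does not show that a factor binds there. Only 4 exact sets of letters were searched, so a promoter without a match is not shown to lack an E2F site. Promoters are shown for GINS2, which rose and has 1 match (position -31), for CDC6, which has 1 match (position 7) and did not pass, and for RFC5, which fell and has none. They lie at chr16:85688905-85689204 on the minus strand (GINS2), chr17:40287629-40287928 on the plus strand (CDC6) and chr12:118016453-118016752 on the plus strand (RFC5), with capitals as above.
GINS2: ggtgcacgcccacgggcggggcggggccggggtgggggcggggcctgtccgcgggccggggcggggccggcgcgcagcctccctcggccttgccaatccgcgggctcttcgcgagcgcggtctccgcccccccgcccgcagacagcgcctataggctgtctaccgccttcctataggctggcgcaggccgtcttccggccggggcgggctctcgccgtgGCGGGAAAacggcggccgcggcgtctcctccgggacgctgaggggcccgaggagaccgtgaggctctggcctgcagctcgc
CDC6: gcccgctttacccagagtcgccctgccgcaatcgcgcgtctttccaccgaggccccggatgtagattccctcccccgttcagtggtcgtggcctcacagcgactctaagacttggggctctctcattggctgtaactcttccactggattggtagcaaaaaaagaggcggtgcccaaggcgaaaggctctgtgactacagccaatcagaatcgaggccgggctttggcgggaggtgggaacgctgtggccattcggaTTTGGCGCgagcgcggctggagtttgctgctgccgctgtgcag
RFC5: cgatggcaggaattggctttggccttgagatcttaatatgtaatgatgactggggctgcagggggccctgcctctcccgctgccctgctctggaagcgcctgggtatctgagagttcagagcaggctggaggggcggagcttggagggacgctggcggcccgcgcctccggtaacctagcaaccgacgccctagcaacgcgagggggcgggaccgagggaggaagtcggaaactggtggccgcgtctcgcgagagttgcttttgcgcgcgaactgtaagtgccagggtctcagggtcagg

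Other genes of the same processes, listed by function rather than by how they moved, gave a mixed picture. Of 39 other replication genes, 8 rose (20.5%) and 4 fell (10.3%), beside 13.2% higher and 11.4% lower among all tested genes. Their median log2 fold change was 0.03. Those with the smallest adjusted p were MCMBP, an MCM-binding protein (-0.32, adjusted p = 0.00011), POLD4, the smallest subunit of polymerase delta (-0.59, adjusted p = 0.00011), and SUPT16H, a subunit of the FACT histone chaperone (0.23, adjusted p = 0.00078). Of 14 other nucleotide supply genes, 4 rose (28.6%) and 0 fell (5 had an unadjusted p under 0.05, and DESeq2 called 4). Among those that rose were CAD, the enzyme that opens pyrimidine synthesis (0.45, adjusted p = 6.4e-07), and CMPK1, a pyrimidine nucleotide kinase (0.25, adjusted p = 0.0016). DCTPP1, which breaks down dCTP, rose too (0.29, adjusted p = 0.0016). The median of the 14 genes was 0.07. Of 11 other genes listed with chromatin duplication, 3 rose (27.3%) and 1 fell (9.09%), with a median of 0.08. The histone chaperone NASP was at 0.24 (adjusted p = 0.00049) and DNMT1 at 0.15 (adjusted p = 0.022). The 1 gene that fell was the phosphatase CDC25A, at -0.59 (adjusted p = 1.8e-06). It activates CDK2 and by function is a G1/S regulator, although it was placed in this list. With scaling by library size alone, or without si-NC replicate 1, 2 of these 11 passed. Calls among all tested genes were 3874 and 2741 in these 2 fits, beside 3886 in the main fit.

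Among the other G1/S regulators, 28 of 30 genes were tested, and 3 rose (10.7%) and 8 fell (28.6%), with a median of -0.01. Among all tested genes, 13.2% were higher and 11.4% lower. The CDK inhibitor CDKN1A fell by 0.52 on the log2 scale (adjusted p = 1.9e-07), cyclin D1 (CCND1) fell by 0.33 (adjusted p = 1.1e-05), and TFDP1, the dimer partner of the E2F factors, rose by 0.38 (adjusted p = 2.2e-06). Mitosis genes leaned the other way from the helicase genes, with 3 of 56 higher (5.36%) and 14 lower (25%) and a median of -0.09. CDC25C, the phosphatase that opens mitosis, fell by 0.46 (adjusted p = 0.00029), the centrosome kinase NEK2 fell by 0.41 (adjusted p = 0.00032), and the kinetochore protein CENPF rose by 0.59 (adjusted p = 0.00013). The counts moved when single libraries were left out. Of the G1/S regulators, 6 passed without si-NC replicate 3 and 7 without si-SRSF11 replicate 1. Of the other replication genes, 7 passed without si-NC replicate 2. Of the mitosis genes, 9 passed without si-NC replicate 1 and 11 without si-NC replicate 3 or si-SRSF11 replicate 2. Calls among all tested genes fell too, from 3886 to 2741, 3009 and 2852 without si-NC replicates 1, 2 and 3. They numbered 3563 and 2990 without si-SRSF11 replicates 1 and 2. These lists were drawn up with earlier results of these libraries known, and differences between them were not tested.

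**Figure D4:**
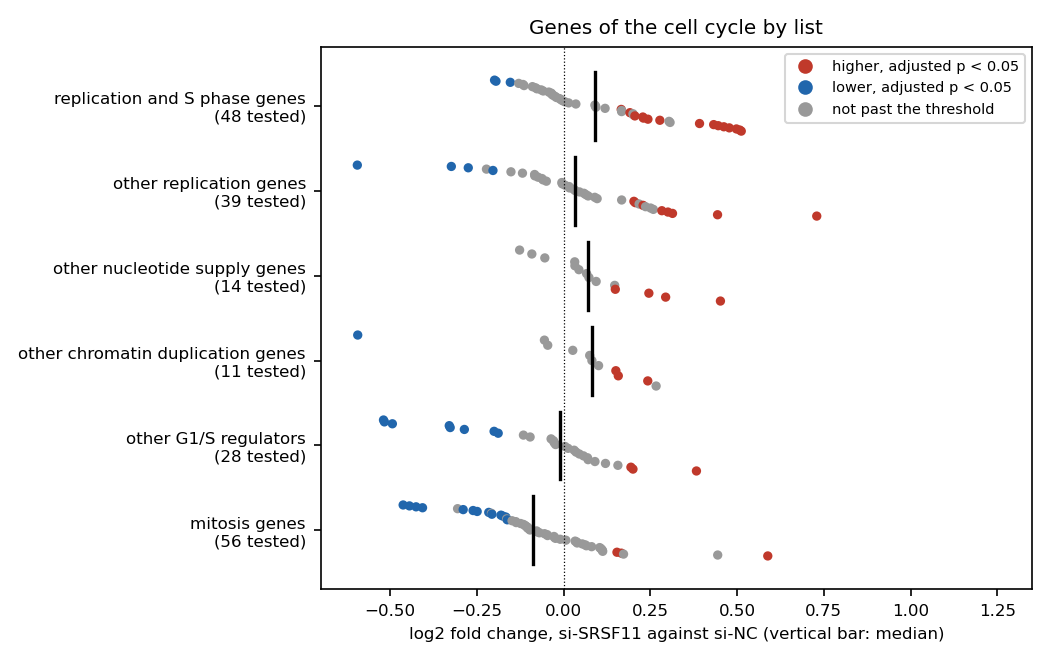
Log2 fold change in si-SRSF11 against si-NC (x axis) of every tested gene in the 48 replication and S phase genes and in 5 further lists; each point is a gene, colours mark calls at an adjusted p under 0.05, and black bars are medians. The medians run from -0.09 (mitosis genes) to 0.09 (the 48 genes).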

How the data were processed

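Polyadenylated RNA of LoVo cells was sequenced in 3 si-NC and 3 si-SRSF11 libraries, grouped by the deposited labels. The deposited values are raw gene-level counts made by the authors for 58735 genes, neither normalised nor filtered, of which 26909 were at 0 in every library. The labels name the build hg38, gene coordinates match GENCODE 29, and the aligner and the counting program are not given in the sources used here. The library kit is not stated to mark strand. Totals ranged from 14369525 to 16685719 counts per library. The biological coefficient of variation was 5.34%, and in 12 of the 48 genes at least 1 library had so few counts that the counting error exceeded it.

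The 15801 genes that reached 10 counts in 3 or more libraries were scaled by TMM and tested with edgeR's quasi-likelihood test (edgeR 4.0.16, R 4.3.3) on condition alone, with Benjamini-Hochberg adjustment over all tested genes. Standard errors came from the quasi-likelihood F statistic, and 95% intervals are the estimate with 1.96 standard errors on either side. The multiplier of 1.96 ignores the limited degrees of freedom of the test, so these intervals are approximate and somewhat too narrow. For ratios within a library, an exact permutation test (two-sided) was used. Alternatives were DESeq2 (1.42.0), other scalings and filters, the protein-coding genes alone, a block for the replicate number, and each library left out in turn. Added after the data were seen, the calls of the main fit were recounted without genes that share sequence with other genes (exon bases and windows of 100 nt, GENCODE 29). In simulated data on 15801 genes for this comparison, 85.7% of genes with a log2 fold change of 0.5 and 60% with -0.5 were called, beside 9 of 15382 unchanged genes.

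The genes given with each library's value are those past an adjusted p of 0.05 and the 6 next by adjusted p, with further subunits where a complex is described, the ends of the level order, and up to 3 genes per further list with the smallest adjusted p. The 48 genes, the lists and these rules were chosen with earlier results of these data known. Splicing cannot be read from gene counts and was not analysed here. A single leukocyte marker is not reported here.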

Additional observations from a re-analysis of the deposited data

How the results depend on the processing

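No called gene changed direction in any of the 13 alternatives, and 9 genes (MCM2 to MCM7, GINS2, UHRF1 and POLD1) passed in all of them. Against 15 higher and 3 lower genes, DESeq2 gave 11 and 3, scaling by library size 11 and 3, upper-quartile scaling 13 and 3, no filter 12 and 3, a minimum of 50 counts 15 and 3, and protein-coding genes only 14 and 3. Leaving out genes that share over 5% of exon bases or windows with others left 33 genes, with 11 higher and 2 lower and a median of 0.09. This is a recount of the calls of the main fit, without a new fit. MCM2, MCM7, UHRF1 and POLD1, which rose, and RFC5, which fell, were among the genes left out, so the recount does not cover them. POLD1 shares 8.64% of its exon bases with another annotated gene, which had 0 counts. ORC6, GINS3, GINS4 and FEN1, which did not pass, were left out too. With 1 library left out, the higher genes numbered 10 to 13 and the lower genes 0 to 3. In the same fits, 9.43% to 12.7% of all tested genes were higher and 8.11% to 12.1% lower. The further lists then had 9 to 18 calls (mitosis), 6 to 12 (G1/S regulators), 7 to 12 (replication), 3 to 5 (nucleotide supply) and 2 to 3 (chromatin duplication, 2 also with scaling by library size). The cause was not tested, beyond the fewer samples when a library is left out. Among all tested genes, scaling by library size turned 53.6% of calls higher into 40.9%, with a median shift of -0.034.

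Of the genes that did not pass, 13 changed sign in at least 1 alternative, most of them with estimates near 0. PRIM1 was not near 0: its -0.13 was the lowest of the 30, and it changed sign only without si-NC replicate 3. RRM2 (0.0042) gave -0.0016 with DESeq2, -0.030 with library size, -0.0038 with upper quartile, -0.0022 with no filter, -0.0018 with a minimum of 50 counts and -0.0071 with protein-coding genes, and E2F2 gave -0.020 with library size. With 1 library left out, the ranges were -0.061 to 0.11 for CCNE2, -0.058 to 0.025 for CDC45, -0.019 to 0.057 for E2F2, -0.070 to 0.039 for FEN1, -0.065 to 0.064 for GINS4, -0.13 to 0.069 for POLA2, -0.082 to 0.0062 for POLD2, -0.21 to 0.0047 for PRIM1, -0.055 to 0.062 for RFC3, -0.14 to 0.0022 for RPA2, -0.088 to 0.012 for RPA3, -0.050 to 0.037 for RRM2 and -0.077 to 0.028 for TK1. The CDT1 to GMNN ratio difference ranged from -0.0056 to 0.093. The cause was not tested.

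The study speaks of pairs of samples without saying that the replicate numbers mark them, and the pairing is not settled by the data. The correlations between the deviations of same-numbered libraries were 0.015, 0.036 and 0.040, each under the 0.1 set for treating the numbers as pairs, while those between different numbers ran from -0.034 to -0.0031. Each library thus correlated best with its own number, at most a weak hint of pairing. The deviations of the 3 libraries of a group add up to 0, so positive same-number values bring negative values between different numbers. The contrast is therefore partly built in. The replicate block gave 15 higher and 3 lower genes and 4036 calls among all tested genes, against 3886 without it. Under the block MCM10 lost its call (adjusted p = 0.0504) and E2F1 gained one (adjusted p = 0.034).

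Depth limits the genes with few counts, where standard errors reached 0.14.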
